A study of Mus musculus with 15 samples.

Results

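The guanylate-binding protein (Gbp) family was followed through 15 mouse liver RNA-seq libraries by its 10 named genes, Gbp2 to Gbp11. All 10 were found by gene symbol among the 16330 genes listed. Of these, 9 were among the 13570 genes tested, and 6 (Gbp2, Gbp3, Gbp7, Gbp9, Gbp10 and Gbp11) were above 0 in every library. The family was chosen by measured values: earlier results of the same data had named Gbp3 and Gbp11 for ethanol against water in luciferase livers, Gbp10 and Gbp11 for the difference of the ethanol effect between constructs, and Gbp10 for LbNOX against luciferase after water. Values of those 3 comparisons are therefore given as a description, without p-values; where counts of calls are printed for them, they stand beside the share of all genes and nothing is read from them. The other 2 comparisons are ethanol against water in LbNOX livers and LbNOX against luciferase after ethanol. The difference of the ethanol effects uses all 4 groups, so both share all of their libraries with a comparison that chose Gbp10 and Gbp11, and neither is independent of the choice. Their p-values are given for members that were not named in the choice, and Gbp3, Gbp10 and Gbp11 are described without one.

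Guanylate-binding proteins are large GTPases of the dynamin superfamily, induced above all by interferon-gamma and also by type I interferons. In mouse cells they assemble on the vacuoles of parasites and on bacteria in the cytosol, where they help break membranes and bring bacterial lipopolysaccharide to inflammatory caspases. In liver they can be expressed by hepatocytes as well as by macrophages and endothelial cells.

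The livers carried LbNOX, a water-forming bacterial NADH oxidase that lowers the ratio of NADH to NAD+, or luciferase as the control protein, and were collected 6 hours after gavage of ethanol or water. There were 3 libraries of LbNOX livers after ethanol (M13 to M15), 3 of luciferase livers after ethanol (M10 to M12), 4 of LbNOX livers after water (M6 to M9) and 5 of luciferase livers after water (M1 to M5). The labels name the construct as the genotype and do not say how it was delivered, which cells carried it, or the strain, sex or age of the mice; the series description speaks of wild type or ChREBP mice, while the sample labels name luciferase and LbNOX. They do not state that libraries came from separate animals, so p-values measure the spread between these libraries, which may be technical.

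Recovered reads per library spanned 10.6 M to 23.7 M, and 823 to 1466 listed genes were at 0 in a library. Depth differed by group. It was 10.6 M to 15.7 M in LbNOX livers and 12.2 M to 14.4 M in luciferase livers after ethanol. After water it was 13.7 M to 20.6 M in LbNOX livers and 14.5 M to 23.7 M in luciferase livers. The luciferase groups thus did not overlap in depth, and the part of depth in the values that follow was not tested. The 7 hepatocyte markers, Alb among them, summed to 506424 to 991016 normalized counts in every library. Summed markers of T and NK cells (10 listed genes) spanned 133 to 283 normalized counts in LbNOX livers after ethanol, 104 to 131 in luciferase livers after ethanol, 210.2 to 295 in LbNOX livers after water and 116 to 451 in luciferase livers after water. Those of Kupffer cells and macrophages (7 genes) spanned 1149.6 to 2024, 1020.3 to 1273, 1235 to 2379.5 and 1098 to 2792 in the same 4 groups, and those of endothelial cells (7 genes) 2242 to 3308, 1808 to 2655, 1974 to 3734 and 1896 to 3619. Neutrophil markers (6 genes) spanned 87.5 to 479, 87.2 to 167, 39.4 to 179 and 42.7 to 160.4, with Mpo at 0 in every LbNOX ethanol library and Ngp in every luciferase ethanol library. B and plasma cell markers (5 genes) spanned 70.8 to 107, 69.97 to 391, 62.5 to 145 and 79.1 to 612, and dendritic cell markers (7 genes) 122 to 175, 94.4 to 147, 125 to 182 and 95.006 to 275, with Cd209a at 0 in every luciferase ethanol library. The part of these cells in the values that follow was not tested, and in bulk tissue fewer cells of a type and less RNA per cell cannot be told apart.

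The 10 genes lie in 2 clusters (GRCm38, GENCODE annotation). Gbp5, Gbp7, Gbp3 and Gbp2 lie on the plus strand of chromosome 3, between 142493978 and 142638008, and Gbp8, Gbp9, Gbp4, Gbp10, Gbp6 and Gbp11 on the minus strand of chromosome 5, between 105014150 and 105346472. Gbp11 is annotated as a polymorphic pseudogene and the other 9 as protein-coding. The promoters below, from RefSeq on GRCm38.p6, are shown because interferon-induced factors act through short elements near such start sites; RefSeq promoters were matched for 4 of the 10 members, all of them on chromosome 3. Capitals mark every match to the core of an interferon-stimulated response element, searched as GAAANNGAA on both strands, which reads TTCNNTTTC where it lies on the other strand.
Gbp5, chr3:142496684-142496983, + strand: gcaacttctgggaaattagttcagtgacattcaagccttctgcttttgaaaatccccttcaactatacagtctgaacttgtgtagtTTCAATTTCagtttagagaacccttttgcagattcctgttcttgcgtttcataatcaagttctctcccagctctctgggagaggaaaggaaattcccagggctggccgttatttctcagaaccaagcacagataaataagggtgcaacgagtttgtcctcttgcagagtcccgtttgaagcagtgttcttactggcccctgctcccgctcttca
Gbp7, chr3:142530086-142530385, + strand: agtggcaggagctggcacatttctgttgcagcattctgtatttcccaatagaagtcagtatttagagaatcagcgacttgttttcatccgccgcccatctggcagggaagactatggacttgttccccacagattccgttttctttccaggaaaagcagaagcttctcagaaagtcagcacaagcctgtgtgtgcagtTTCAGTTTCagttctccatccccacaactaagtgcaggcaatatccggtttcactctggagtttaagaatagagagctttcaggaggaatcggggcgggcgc
Gbp3, chr3:142559794-142560093, + strand: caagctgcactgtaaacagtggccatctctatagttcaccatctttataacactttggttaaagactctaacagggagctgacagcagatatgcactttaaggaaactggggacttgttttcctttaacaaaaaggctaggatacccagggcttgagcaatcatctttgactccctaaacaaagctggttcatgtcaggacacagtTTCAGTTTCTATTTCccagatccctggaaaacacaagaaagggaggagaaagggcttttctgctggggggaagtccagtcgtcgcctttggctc
Gbp2, chr3:142620413-142620712, + strand: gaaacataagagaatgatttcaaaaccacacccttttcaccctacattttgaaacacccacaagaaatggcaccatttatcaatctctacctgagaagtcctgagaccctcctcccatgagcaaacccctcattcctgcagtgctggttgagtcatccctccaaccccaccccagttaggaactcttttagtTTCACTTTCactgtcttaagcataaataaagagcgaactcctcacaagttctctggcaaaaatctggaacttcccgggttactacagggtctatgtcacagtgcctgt
Each of these 4 windows held at least 1 match, against 8.56% of 32851 promoters of the same length. In Gbp7, Gbp3 and Gbp2 the matches lay within 60 bases before the annotated start, at -52, at -44 and -38, and at -58, and in Gbp5 the match began at -164. In Gbp3, 2 matches overlapped. TTCNNNGAA, the core of the gamma-activated site, was matched 2 times each in Gbp5 and Gbp7 and not in the printed windows of Gbp3 and Gbp2, while 8.3% of all promoters held at least 1 match and 1.07% held both motifs. The window at a second annotated start of Gbp3 held neither. A match is a description of letters, not a site.

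The chromosome 5 genes share much of their transcript sequence, which limits how reads can be divided among them. Of the 31-base words in the annotated transcripts of Gbp10, 89.8% also occur in another gene and 80.8% in Gbp6. For Gbp6, 74.2% are shared and 51.4% occur in Gbp10; both genes also overlap Gm43302, which is not in the table. The shares were 34.3% for Gbp11, 31.1% for Gbp8, 18.3% for Gbp9 and 14.3% for Gbp4, against 14.7% for Gbp7, 5.64% for Gbp3, 4.85% for Gbp2 and 3.05% for Gbp5 on chromosome 3. Gbp4, Gbp8 and Gbp9 also overlap on the same strand. Values of single chromosome 5 genes, Gbp6 and Gbp10 above all, are therefore uncertain, and sums over them are given beside them.

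**Figure D1:**
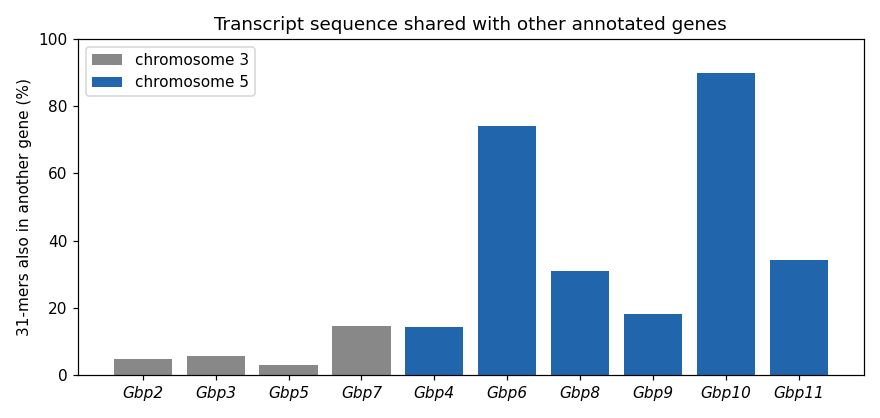
Bars give the percentage of 31-base words of each gene's annotated transcripts that also occur in another annotated gene, with chromosome 3 members in grey and chromosome 5 members in blue. Gbp10 (89.8%) and Gbp6 (74.2%) stand far above the rest, which lie between 3.05% and 34.3%.

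Levels of different members were compared per kilobase of the longest annotated transcript. In LbNOX livers after ethanol, the order began with Gbp2 at 185 ± 32.0 and Gbp10 at 180.0 ± 21.6 per kilobase (SD, n = 3), followed by Gbp7 at 106 ± 11.8 and Gbp3 at 78.7 ± 16.5. In luciferase livers after water the same 4 led. Gbp10 stood at 408 ± 78.8 normalized counts per kilobase (SD, n = 5), Gbp2 at 374 ± 207, Gbp3 at 291 ± 96.6 and Gbp7 at 250.0 ± 91.4, and each of these differed from its neighbour by less than the larger SD. Gbp6 followed at 102 ± 37.0, Gbp9 at 88.6 ± 55.9 and Gbp11 at 62.5 ± 14.6, then Gbp5 at 17.6 ± 13.9. The step between Gbp7 and Gbp6 was larger than either SD.

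The family stood highest in luciferase livers after water and lower in each of the other 3 groups. The sum over all 10 members was 2384 ± 201 normalized counts in LbNOX livers after ethanol, 1693 ± 930.3 in luciferase livers after ethanol, 2152 ± 806 in LbNOX livers after water and 5457 ± 1570.2 in luciferase livers after water (SD, n = 3, 3, 4 and 5). The highest of the other 10 libraries, at 3265, was below the lowest luciferase water library, at 3603. The chromosome 3 members summed to 1280.5 ± 139.7, 1026 ± 512, 1286 ± 607 and 3179 ± 1053, and the chromosome 5 members to 1104 ± 115, 667 ± 418, 866 ± 200.1 and 2278 ± 567, in the same order of groups. Gbp3 and Gbp10 were higher in each of the 5 luciferase water libraries than in all 10 other libraries, which held for 0.214% of all genes tested. Both genes were chosen on comparisons with the luciferase water group, so nothing is read from that share.

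**Figure D2:**
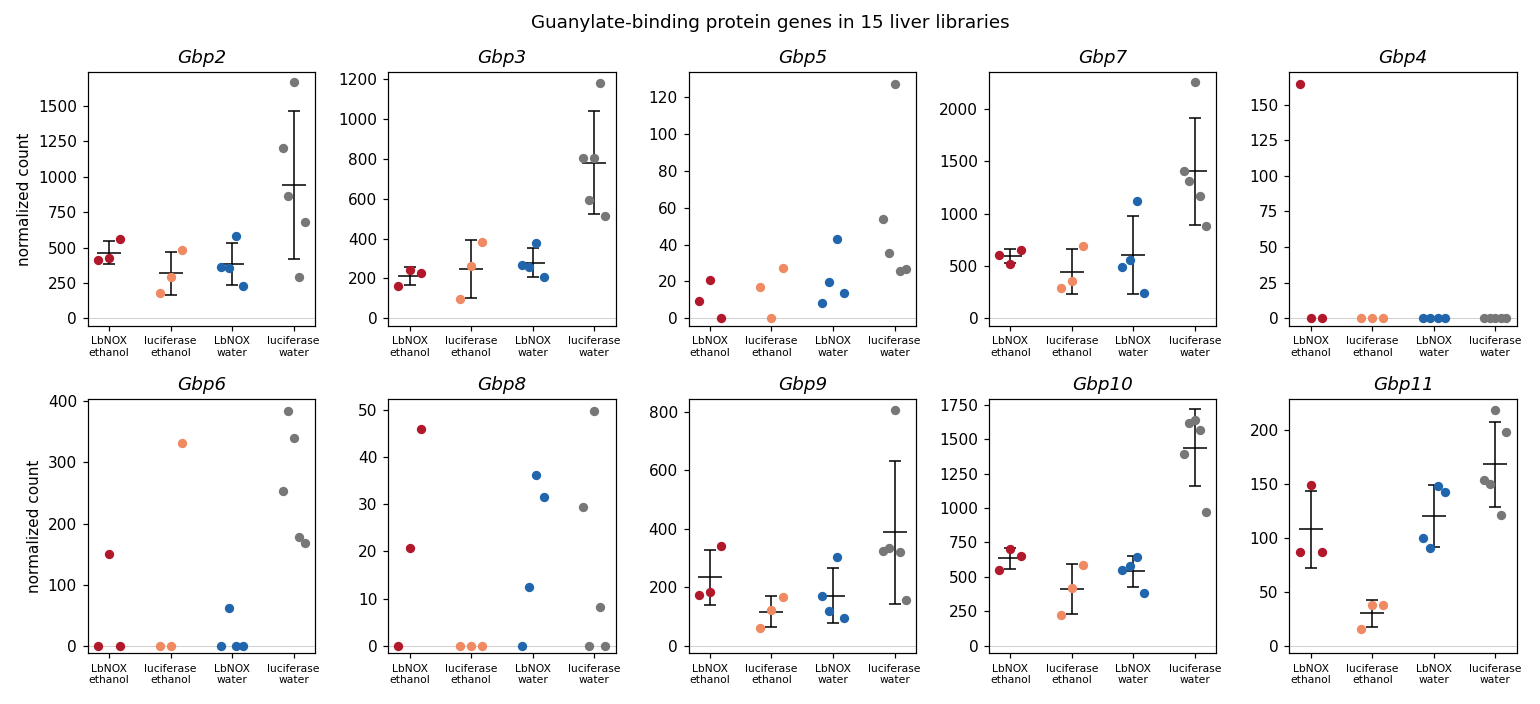
Each panel shows 1 gene, with a point for each library (normalized count, linear axis) in the 4 groups; black lines give the mean and SD of members above 0 in every library. The luciferase water libraries stand above the other groups for Gbp3 and Gbp10, and the luciferase ethanol libraries lie lowest for Gbp11, at 15.7 to 37.4.

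Of the chromosome 3 members, Gbp2 carries a lipid anchor and coats the vacuole of Toxoplasma in mouse cells. Gbp2 had 412, 425 and 557 normalized counts in LbNOX livers after ethanol, 180.3, 290.4 and 481 in luciferase livers after ethanol, 366, 359, 584 and 226 in LbNOX livers after water, and 1202, 868, 1666, 293 and 682 in luciferase livers after water. The lowest luciferase water value, 293 in M4, fell within or below the range of every other group. Gbp3 had 161, 243 and 229.7 normalized counts in LbNOX livers after ethanol, 96.8, 264 and 385 in luciferase livers after ethanol, 267, 258, 379.6 and 209 in LbNOX livers after water, and 806, 592, 806, 1181 and 514 in luciferase livers after water. M4, the lowest water library for Gbp2, was the highest of all for Gbp3.

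Gbp7 has been linked in mouse macrophages to the assembly of the phagocyte oxidase on bacterial vacuoles. It had 606, 523 and 654 normalized counts in LbNOX livers after ethanol, 286, 359 and 692 in luciferase livers after ethanol, 492.9, 555, 1124 and 239 in LbNOX livers after water, and 1404, 1308, 2251, 1167 and 885 in luciferase livers after water. The 3 other groups overlapped each other, and M8, at 1124, reached into the luciferase water range. Gbp5, a lipid-anchored member linked to inflammasomes, was low throughout, with 9.69, 20.7 and 0 normalized counts in LbNOX livers after ethanol, 16.9, 0 and 27.4 in luciferase livers after ethanol, 8.22, 19.5, 43.1 and 13.9 in LbNOX livers after water, and 53.9, 35.4, 127, 25.8 and 27.0 in luciferase livers after water. Its luciferase water libraries stood above those of LbNOX livers after ethanol and overlapped the other 2 groups.

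On chromosome 5, Gbp10 had the highest level per kilobase in luciferase livers after water, and in mouse macrophages it has been counted among the members that restrict intracellular bacteria. It had 553, 704 and 649 normalized counts in LbNOX livers after ethanol, 226, 417 and 588 in luciferase livers after ethanol, 550.5, 577, 648 and 384 in LbNOX livers after water, and 1397, 1616, 1644, 1569 and 973 in luciferase livers after water. The 5 luciferase water libraries stood apart, and the other 3 groups overlapped each other. Gbp6, also named in that work, was listed at 0, 149 and 0 in LbNOX livers after ethanol, 0, 0 and 332 in luciferase livers after ethanol, 0, 60.9, 0 and 0 in LbNOX livers after water, and 253, 384, 339.9, 177 and 168 in luciferase livers after water. A 0 may be a failed estimate, since Gbp6 and Gbp10 share most of their sequence. Gbp4 was listed at 165 in M13 and at 0 in all other libraries.

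Adding Gbp4, Gbp6 and Gbp10 gives a level less exposed to how reads were divided among them. That sum was 740.4 ± 104 normalized counts in LbNOX livers after ethanol, 521 ± 358 in luciferase livers after ethanol, 555 ± 122 in LbNOX livers after water and 1704 ± 349 in luciferase livers after water (SD, n = 3, 3, 4 and 5). The highest of the other libraries, at 919.8 in a luciferase ethanol library, was below the lowest luciferase water library, at 1141.

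**Figure D3:**
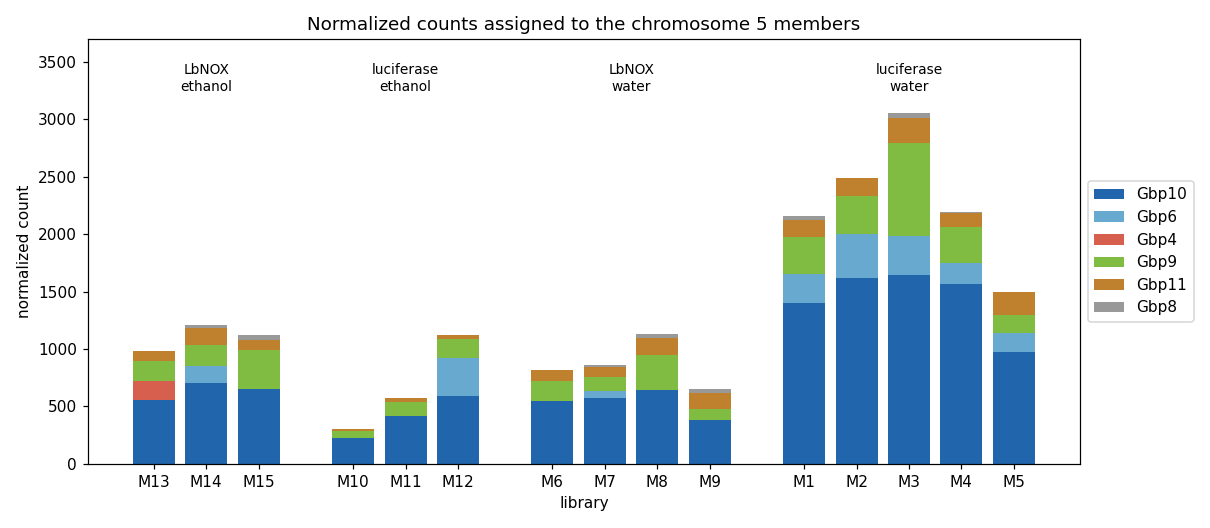
Stacked bars show, for each library, the normalized counts assigned to the 6 chromosome 5 members, grouped by construct and gavage. Gbp10 makes up most of each bar, Gbp6 is present in all 5 luciferase water libraries and in 3 others, and Gbp4 appears in M13 alone.

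Gbp9 had 174, 184 and 342 normalized counts in LbNOX livers after ethanol, 59.3, 122 and 166 in luciferase livers after ethanol, 170.1, 117, 303 and 93.2 in LbNOX livers after water, and 324, 335, 806, 319 and 157 in luciferase livers after water. The 2 ethanol groups did not overlap, while the water groups did. Gbp11 had 87.2, 149 and 87.1 normalized counts in LbNOX livers after ethanol, 15.7, 37.3 and 37.4 in luciferase livers after ethanol, 100.2, 90.6, 148 and 142 in LbNOX livers after water, and 153, 150.0, 219, 121 and 198 in luciferase livers after water. All 3 luciferase ethanol libraries lay below the other 12, and those other groups overlapped. Gbp8 was listed at 0, 20.7 and 45.9 in LbNOX livers after ethanol, at 0 in all 3 luciferase ethanol libraries, at 0, 12.5, 36.2 and 31.5 in LbNOX livers after water, and at 29.4, 0, 49.9, 8.21 and 0 in luciferase livers after water.

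After water, LbNOX livers held less Gbp10 and Gbp3 than luciferase livers, without overlap between the libraries. The log2 fold change of LbNOX against luciferase livers after water, on the scale of log2(normalized count + 1), was -1.41 for Gbp10 (SE 0.24), -1.46 for Gbp3 (SE 0.34) and -0.48 for Gbp11 (SE 0.28). Gbp7 stood at -1.36 (SE 0.38), Gbp2 at -1.16 (SE 0.43) and Gbp9 at -1.13 (SE 0.45). Over the 9 tested members the median was -1.27, and -1.26 over the 6 above 0 in every library, against 0.009 over all genes. By limma, with an adjusted p below 0.05 over all genes as the threshold for a call, 0 of the 9 members and 0% of all genes were called. At an unadjusted p below 0.05 it was 6 members and 3.24% of genes, by edgeR 0 members and 0%, and by DESeq2 2 members, Gbp3 and Gbp10, and 0.133%. Gbp3, Gbp6 and Gbp10 were lower without overlap, which held for 0.619% of all genes. Nothing is read from these counts, since this comparison was used in choosing the family.

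In luciferase livers, ethanol went with lower levels of the family. The log2 fold change of ethanol against water was -2.51 for Gbp11 (SE 0.31), -1.89 for Gbp10 (SE 0.26), -1.80 for Gbp3 (SE 0.37) and -1.69 for Gbp7 (SE 0.41), and limma called these 4 of 9 members, against 7.75% of all genes; Gbp3 and Gbp11 were chosen on these values, so nothing is read from the count. The mean of Gbp11 was 30.1 ± 12.5 normalized counts after ethanol and 168 ± 39.4 after water (SD, n = 3 and 5), a ratio of 0.179. Those 4 members were lower without overlap, as were 6.39% of all genes. Gbp9 (-1.66, SE 0.49) and Gbp2 (-1.46, SE 0.47) were not called. The median over 9 members was -1.89 and over the 6 above 0 everywhere -1.74, against 0.005 over all genes. The Gbp7 call ended without M10 or M11.

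**Figure D4:**
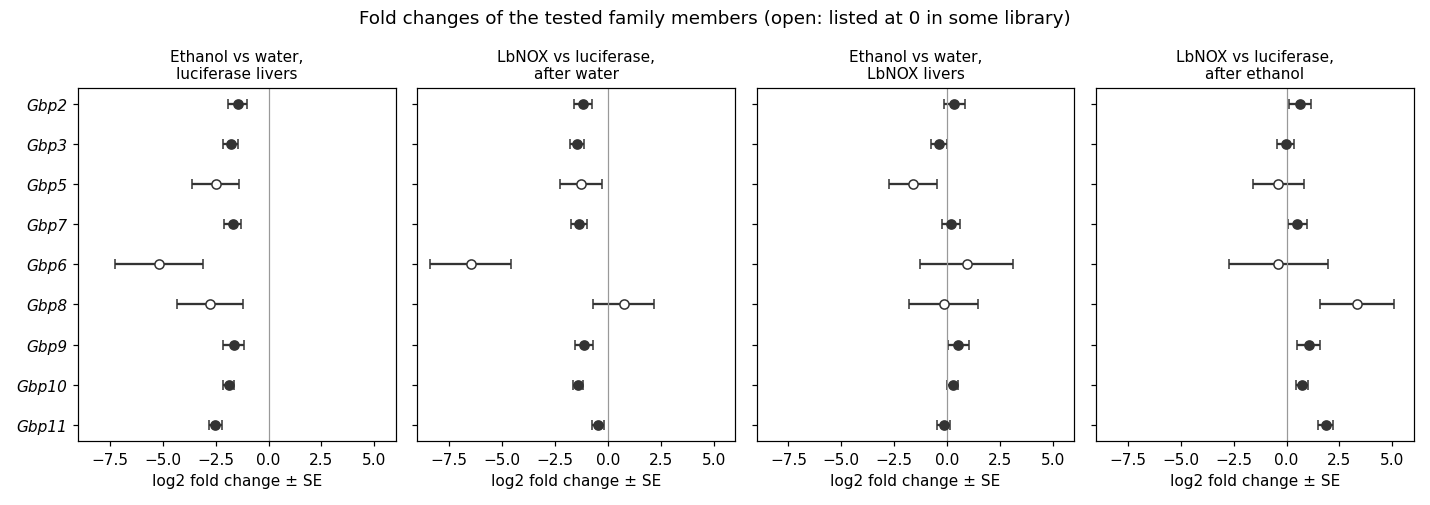
Points give each tested member's log2 fold change with its SE (bars) in 4 comparisons of 3 to 5 libraries a group; open points mark members listed at 0 in at least 1 library, whose fold change depends on the pseudocount. Filled points lie left of 0 in both comparisons with luciferase livers after water (-0.48 to -2.51) and around 0 for ethanol against water in LbNOX livers (-0.39 to 0.53).

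In LbNOX livers, no member was called between ethanol and water. Gbp10 averaged 636 ± 76.2 normalized counts after ethanol and 539.7 ± 111 after water (SD, n = 3 and 4), a log2 fold change of 0.25 (SE 0.28). Gbp11 averaged 108 ± 36.0 after ethanol and 120.3 ± 29.0 after water, a log2 fold change of -0.17 (SE 0.32). For Gbp3 it was -0.39 (SE 0.39). Gbp9 stood at 0.53 (SE 0.51, limma adjusted p = 0.72), Gbp2 at 0.34 (SE 0.49, adjusted p = 0.816) and Gbp7 at 0.18 (SE 0.43, adjusted p = 0.895). By limma 0 of 9 members were called, against 0.00737% of all genes, and 0 members against 11.6% of genes had an unadjusted p below 0.05; edgeR called 0 members and 0.00737% of genes, and DESeq2 0 members and 2.13%. The median over 9 members was 0.18 and over 6 members 0.22, against -0.004 over all genes. The 9-member median was -0.43 without M14. A p above the threshold does not show that the levels were equal.

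After ethanol, LbNOX livers held more Gbp11 than luciferase livers. Gbp11 averaged 108 ± 36.0 normalized counts in LbNOX livers and 30.1 ± 12.5 in luciferase livers (SD, n = 3 each), 3.58 times as much, with a log2 fold change of 1.86 (SE 0.35). With each library left out it lay between 1.46 and 2.06. This fold change is the sum of the difference of the ethanol effects and the LbNOX effect after water, values that chose Gbp11 or the family, so it is a description. By limma 1 of 9 members, Gbp11, was called, against 6.06% of all genes, and nothing is read from that count; 34.3% of its transcript words are shared with other genes. Gbp10 stood at 0.73 (SE 0.30) and Gbp3 at -0.05 (SE 0.42). Gbp9 (1.06, SE 0.54, limma adjusted p = 0.284), Gbp2 (0.65, SE 0.52, adjusted p = 0.511) and Gbp7 (0.52, SE 0.46, adjusted p = 0.56) were not called. Gbp9 and Gbp11 were higher without overlap, as were 14.1% of all genes. The median was 0.65 over 9 members and 0.69 over 6, against 0.004 over all genes. The 9-member median was 0.30 without M10 and 1.04 without M12. Summed T and NK cell markers were also higher, by a narrow gap, at 132.8 to 283 normalized counts in LbNOX livers and 104 to 130.9 in luciferase livers. Of their 9 tested markers, 7 had a fold change above 0 and 2 below, and limma called 0. Kupffer cell and macrophage markers stood 6 above and 0 below, neutrophil markers 4 and 0, and endothelial markers 5 and 2. Dendritic cell markers stood 2 and 2, B and plasma cell markers 0 and 2, and hepatocyte markers 1 and 6. The part of these cells in the Gbp11 result was not tested.

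The difference of the ethanol effects, LbNOX minus luciferase livers, was 2.34 on the log2 scale for Gbp11 (SE 0.45) and 2.14 for Gbp10 (SE 0.38), the values on which both were chosen. These 2 of 9 members were called, against 1.67% of all genes, from which nothing is read. The Gbp11 call ended without M6 or M10. The 2 differences were built unlike each other. For Gbp11, the luciferase ethanol group stood below the other 3, with LbNOX and luciferase livers after water at -0.48. For Gbp10, the luciferase water group stood above the other 3, with LbNOX and luciferase livers after water at -1.41. Both comparisons share the luciferase water libraries. Of the other members, Gbp9 stood at 2.18 (SE 0.70), Gbp7 at 1.87 (SE 0.59), Gbp2 at 1.81 (SE 0.67) and Gbp3 at 1.41 (SE 0.54), none of them called.

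Within the family, 2 ratios are given by library. The ratio of Gbp3 to Gbp2 was 4.03 in M4 and 0.389 to 0.927 in the other 14 libraries. M4 also had the highest score of type I interferon-stimulated genes, 1.91 as a mean of centred log2 values, against at most 0.66 elsewhere. The ratio of Gbp10 to Gbp11 was 4.71 to 7.46 in LbNOX livers after ethanol, 11.2 to 15.7 in luciferase livers after ethanol, 2.7 to 6.36 in LbNOX livers after water and 4.92 to 13 in luciferase livers after water. Among the 6 members above 0 everywhere, the 15 pairs had Pearson r of 0.601 to 0.918 (median 0.78) across 15 libraries, which share group and scaling factor; this is a description.

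By Pearson r with the mean centred log2 level of the tested members over 15 libraries, the 10 nearest of the other genes were Gm12250 (0.916), Ifi47 (0.898), Irgm1 (0.895), Iigp1 (0.887), Igtp (0.868), Abracl (0.843), Cd274 (0.841), Tmem106a (0.838), Irgm2 (0.838) and Basp1 (0.834). Cd274 encodes the immune checkpoint ligand PD-L1. With the mean of the 6 members above 0 in every library instead, r was 0.748 for Abracl and 0.803 for Basp1. The other listed genes then had r of 0.913 to 0.97. Tgtp1 (0.915), Zbp1 (0.883) and Cxcl10 (0.879), outside the 10, then stood above Abracl and Basp1. The place of Abracl and Basp1 among the 10 therefore depended on which members were used. All libraries of a group enter with their group difference, so r describes a shared order of groups as well as of libraries.

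**Figure D5:**
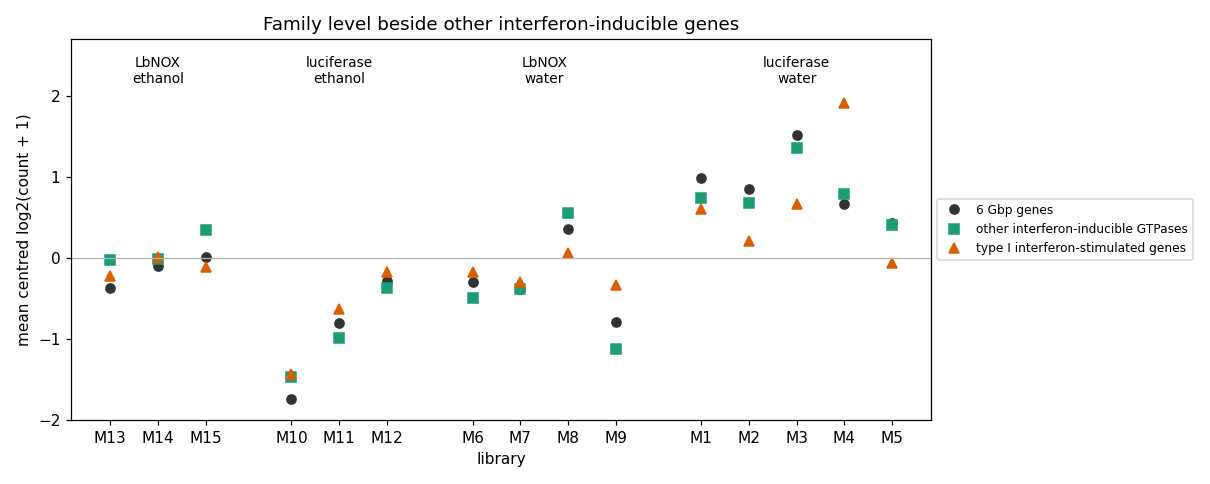
Points give, for each library, the mean log2(normalized count + 1), centred on all libraries, of the 6 members above 0 everywhere, of the other interferon-inducible GTPases and of type I interferon-stimulated genes. The GTPase score includes Gbp2b, a guanylate-binding protein gene outside the named members. The 3 scores lie lowest in M10 (-1.74, -1.47 and -1.43), and the type I score alone stands out in M4, at 1.91.

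The list of other interferon-inducible GTPases held genes outside the 10 members, some of which act beside guanylate-binding proteins on pathogen vacuoles. It included Mx1 and Gbp2b, the latter itself a guanylate-binding protein gene. In LbNOX against luciferase livers after ethanol, 2 of 12 tested genes were called higher and 0 lower, while 6.06% of all genes were called in either direction. The counts of the lists that follow stand beside the same share. Irgm2, a regulator of the group, rose to 2065 ± 503 normalized counts in LbNOX livers, against 836 ± 346 in luciferase livers (SD, n = 3 each; log2 fold change 1.36, SE 0.32, limma adjusted p = 0.0228). Tgtp2 rose to 68.1 ± 21.8, against 17.4 ± 7.64 (1.94, SE 0.43, adjusted p = 0.0185). The median over the 12 genes was 1.03. Iigp1 (0.73, SE 0.21, adjusted p = 0.0543) and Irgm1 (0.68, SE 0.23, adjusted p = 0.0948) were not called. In luciferase livers, 9 of the 12 were called lower after ethanol than after water, against 7.75% of all genes called in either direction. This list and those that follow were chosen with earlier results of these data known, so nothing is read from these counts. LbNOX against luciferase livers after ethanol shares the luciferase ethanol libraries, and the named genes include the smallest p-values of each list there. The p-values printed for list genes are therefore a description.

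Of 15 genes of interferon-gamma signalling, the pathway that induces the family, 1 rose and 1 fell in LbNOX against luciferase livers after ethanol (median 0.50). Irf1, the transcription factor induced by interferons, had 1067 ± 125 normalized counts in LbNOX livers and 519 ± 67.8 in luciferase livers (SD, n = 3 each; log2 fold change 1.04, SE 0.20, limma adjusted p = 0.00837). Irf2, an antagonist of Irf1 at many promoters, had 1026 ± 232 in LbNOX livers and 1852 ± 193 in luciferase livers (-0.87, SE 0.19, adjusted p = 0.0165). Ifng itself was low and was not called (2.76, SE 0.885, limma adjusted p = 0.0836). It was listed at 0 in all 3 luciferase ethanol libraries and averaged 8.05 ± 6.14 normalized counts in LbNOX livers after ethanol (SD). After water it averaged 3.62 ± 3.22 in LbNOX livers and 5.62 ± 3.51 in luciferase livers (SD).

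Of 15 type I interferon-stimulated genes, 1 rose in LbNOX against luciferase livers after ethanol and 0 fell (median 0.58). It was Cxcl10, a T cell chemokine, with 531 ± 133 normalized counts in LbNOX livers and 137 ± 83.6 in luciferase livers (SD, n = 3 each; log2 fold change 2.08, SE 0.45, limma adjusted p = 0.0159). Of 10 genes of ATG8 conjugation, which guide these GTPases to vacuoles, 0 rose and 1 fell: Atg16l1, with 533 ± 24.0 in LbNOX livers and 760.3 ± 60.4 in luciferase livers (-0.51, SE 0.13, adjusted p = 0.0278). Of 10 inflammasome and pyroptosis genes, limma, edgeR and DESeq2 each called 0, and 3 had an unadjusted p below 0.05, as did 21% of all genes. Of 6 prenylation enzymes, some of which attach the lipid anchor of Gbp2 and Gbp5, these tools called 0 and 0 had an unadjusted p below 0.05. Among these enzymes, Rce1 was listed at 0 in every library of both ethanol groups, so it could not be called. Between ethanol and water in LbNOX livers, limma, edgeR and DESeq2 called 0 of the 68 tested genes of these 6 lists, and 4 had an unadjusted p below 0.05, as did 11.6% of all genes.

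The genes beside the 2 clusters were compared in the same fit. Of the 3 nearest tested genes on each side, 12 in all, 1 was called in LbNOX against luciferase livers after ethanol, where 6.06% of all genes were, so this is not a result about the neighbours: Pdlim5, a cytoskeletal adaptor, at 0.49 (SE 0.13, limma adjusted p = 0.0363). Abcg3, a transporter gene 31.4 kilobases from the chromosome 5 cluster, stood at 0.64 (SE 0.42, adjusted p = 0.411), and Gtf2b, 127 kilobases from the chromosome 3 cluster, at -0.32 (SE 0.12, adjusted p = 0.146).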

How the data were processed

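RNA of 15 liver libraries was prepared with the KAPA mRNA HyperPrep kit, per the labels' protocols. Values are the authors' deposited normalized counts per gene, a signal scaled by 1 factor per library; mm10, Salmon 1.5.1 and DESeq2 1.30.1 are listed, per the submitters' processing notes, without their roles. Dividing by the value of 1 read, found from the steps between low values, recovered whole reads (within 0.001) for 100% of 244950 values, 10.6 M to 23.7 M per library; counting error weighs most on the low members Gbp5 and Gbp8. Genes reaching 10 normalized counts in 3 or more libraries were fitted by limma 3.58.1 (mean-variance trend, robust) on log2(normalized count + 1), with all 4 groups in 1 model and Benjamini-Hochberg adjustment over 13570 genes. Folds are on that scale, and those of members listed at 0 depend on the pseudocount and could come out larger or smaller than by edgeR. The model was tested on simulated data. edgeR 4.0.16 and DESeq2 1.42.0 ran on recovered reads. Other alternatives were the pseudocount, filter, quantile normalization, no trend, fewer groups and each library left out. Members and lists were chosen with earlier results of these data known. Genes named beside the members were the 3 smallest p-values of each list in LbNOX against luciferase livers after ethanol, genes of the interferon-gamma and GTPase lists, the 10 nearest by r, cluster neighbours, and markers at 0 or highest.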

Additional observations from a re-analysis of the deposited data

Results flagged for a closer look

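Of 18 groups of 4 or 5 libraries tested for a value far from its neighbours, 3 were flagged, while chance flags about 1 in 20. Gbp5 at 127 and Gbp9 at 806 normalized counts, both in M3, stood above the other luciferase water libraries. M3 was also highest there for Gbp2, Gbp7 and Gbp11. Gbp6 at 60.9 in M7 was the 1 value above 0 among LbNOX livers after water. With the others tied at 0, any value above 0 would be flagged, so the chance rate does not apply to that group.

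The ethanol effect differed between the constructs for Gbp10, by 2.14 on the log2 scale, and for Gbp11, by 2.34. Both values helped to choose the family.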

How the results depend on the processing

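No paired analysis was possible because the table's columns carry no replicate numbers. DESeq2 on recovered reads called 2 members in LbNOX against luciferase livers after ethanol (Gbp8 and Gbp11), 7 in ethanol against water in luciferase livers and 2 in LbNOX against luciferase livers after water. With each library left out, members called ranged from 1 to 3 for the difference of the ethanol effects and from 0 to 1 for LbNOX against luciferase livers after water (1 without M10), and the median for ethanol against water in LbNOX livers ranged from -0.43 to 0.40. In that comparison, Gbp7 turned to -0.02 by edgeR and -0.02 by DESeq2, and Gbp8 to 0.17 and 0.15. With a library left out, directions also turned for Gbp6 (-1.49 to 2.41), Gbp7 (-0.19 to 0.55) and Gbp8 (-1.33 to 1.5) there, for Gbp3 (-0.61 to 0.38), Gbp5 (-1.88 to 0.93) and Gbp6 (-2.79 to 2.41) in LbNOX against luciferase livers after ethanol, and for Gbp5 (-0.61 to 2.20) in the difference; none of these was called, and the cause was not tested. Over all genes, limma called 822 in LbNOX against luciferase livers after ethanol, DESeq2 1349 and leaving out a library 299 to 944. For ethanol against water in luciferase livers it was 1052, 1621 and 446 to 1217, and for the difference 227, 633 and 64 to 403. For ethanol against water in LbNOX livers it was 1, 282 and 0 to 28, and for LbNOX against luciferase livers after water 0, 18 and 0 to 1. Leaving out M3 and M8 together, chosen after seeing the data, called 0, 1, 4, 0 and 3 members in ethanol against water in LbNOX livers, LbNOX against luciferase after ethanol, ethanol against water in luciferase livers, LbNOX against luciferase after water and the difference. The relation of the zeros to depth was not tested. Gbp4 was above 0 in M13 alone, with 10.6 M reads. Gbp6 was at 0 in M6, with 19.0 M, and at 332 in M12, with 12.2 M, the shallowest library of its group. It was also above 0 in M7, with 20.6 M, and in M14, with 15.7 M, each the deepest of its group. Fold changes of members with zeros moved with the tool, as for Gbp6 in ethanol against water in luciferase livers, at -5.18 by limma and -1.27 by edgeR. In the same comparison Gbp8 moved the other way, at -2.76 by limma and -7.21 by edgeR.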

Other observations

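Gbp2b, a guanylate-binding protein gene on chromosome 3 outside the 10 named members, stood at 14.6 ± 2.13 normalized counts in LbNOX livers after ethanol, 13.8 ± 4.11 in luciferase livers after ethanol, 9.31 ± 9.55 in LbNOX livers after water and 15.9 ± 6.57 in luciferase livers after water (SD, n = 3, 3, 4 and 5). Its groups overlapped, and 4.15% of its 31-base words occur in another gene, all of them in Gbp2.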
